A study of Rattus norvegicus with 12 samples.

Results

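Articular chondrocytes of injured rat knees treated with liposomes that carried CGS21680 (Lipo-CGS) were compared with those of injured knees treated with empty liposomes (Lipo), in the 6 libraries labelled with these 2 treatments out of 12 libraries sequenced. CGS21680 is a selective agonist of the adenosine receptor A2AR, and the empty liposomes are the carrier alone, so the comparison asks what the drug adds to its carrier. The rats were Sprague Dawley, and in each treated knee the anterior cruciate ligament had been ruptured by a single load, an injury that is followed by osteoarthritis (OA). Treatment started 4 weeks after the rupture and lasted 8 weeks, with 100 µl injected into the joint once every 10 days. There were 3 Lipo-CGS and 3 Lipo libraries, and 3 libraries of injured knees injected with Saline and 3 of Uninvolved knees, whose treatment the labels do not describe, serve here only as reference levels. The cartilage of 3 rats was pooled for each library, and the cells were cultured before RNA was taken, for a time not given in the sources used here. Since each group held fewer rats than its pools would need without sharing, pools of a group may share animals, and which ones do is not stated. The p-values therefore measure the spread between these libraries, part of which may be technical.

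Adenosine leaves stressed and injured cells and acts on receptors at the cell surface. A2AR couples to the stimulatory G protein, which turns on adenylyl cyclase and raises cyclic AMP (cAMP). Protein kinase A, activated by cAMP, phosphorylates CREB, a transcription factor that binds the cAMP response element of promoters, and phosphodiesterases end the signal by breaking cAMP down. Chondrocytes make and maintain the matrix of cartilage, which is built of type II collagen and the proteoglycan aggrecan, and in OA they degrade this matrix and can make proteins of fibrous tissue in its place.

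The deposited values are FPKM, reads scaled to gene length and to the mapped reads of the library, with 2 decimals, and the read counts behind them are unknown. For 186 genes near the detection limit the value of a single read gave the depth relative to the median of all 12 libraries. It was 1.00 to 1.09 in the Lipo-CGS and 0.906 to 1.09 in the Lipo libraries. Lipo replicate 1 stood apart from the rest. Its Euclidean distance over all tested genes on the log2 scale was 41.3 to Lipo replicate 2 and 38.0 to Lipo replicate 3, while the 3 Lipo-CGS libraries lay 25.3 to 30.3 from each other. Lipo replicate 2 was closer to Lipo-CGS replicate 2 (30.8) than to Lipo replicate 3 (35.5). The main gene families are therefore also described without Lipo replicate 1. Of 12 chondrocyte markers, 11 were in the table and all of these were tested, with a summed level of 11915 to 17338 FPKM in Lipo-CGS and 9547 to 15286 FPKM in Lipo. Of 13 leukocyte markers, 8 stayed under 1 FPKM in all 6 libraries, among them the pan-leukocyte gene Ptprc at 0.02 FPKM or less, and the summed level was 26.8 to 36.7 FPKM in Lipo-CGS and 23.8 to 26.3 FPKM in Lipo. In pooled cells, fewer cells of a type and less RNA per cell cannot be told apart.

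Lipo-CGS chondrocytes differed from Lipo chondrocytes in a small number of called genes, among them less transcript of the matrix proteins reelin, nephronectin and versican and more of the signaling regulators Junb, Socs3 and Rcan1. The test covered 11373 genes, those that reached 1 FPKM in 3 or more of all 12 libraries. Values of log2(FPKM + 0.5) from the 4 groups entered 1 limma fit, and a gene is called where its Benjamini-Hochberg adjusted p was under 0.05 and its fold exceeded 1.5. Fold changes on this scale understate the change of low genes. By this rule 9 genes were called higher in Lipo-CGS (0.0791% of those tested) and 10 lower (0.0879%), and in each of the 19 all 3 Lipo-CGS libraries lay on one side of all 3 Lipo libraries. At an unadjusted p under 0.0005 and the same fold change the counts were 41 higher (0.361%) and 31 lower (0.273%), and 294 genes had an adjusted p under 0.1. Over all tested genes, all 3 Lipo-CGS libraries lay above all 3 Lipo libraries in 14.7% and below them in 13.1%. Fitted differences were above 0 in 5782 and below 0 in 5591 genes, with a median of 0.00.

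**Figure D1:**
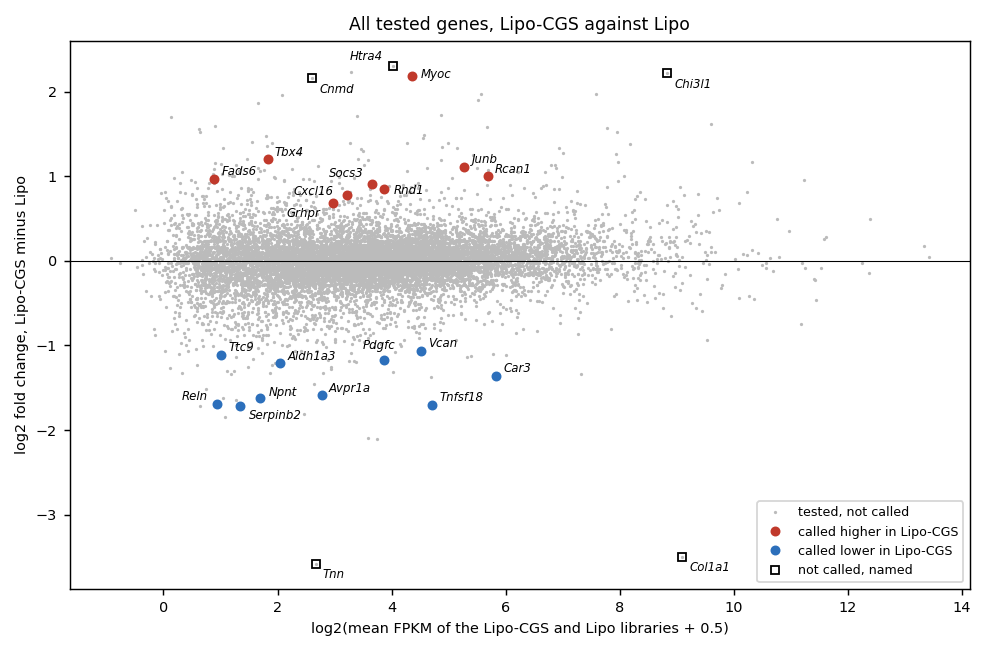
Each point is a tested gene, with the log2 of its mean FPKM + 0.5 over the 6 Lipo-CGS and Lipo libraries on the horizontal axis and the log2 fold change of Lipo-CGS against Lipo on the vertical axis. The 9 genes called higher (red) and 10 called lower (blue) are not the most extreme points, since Tnn at -3.58 and Htra4 at 2.31 (open squares) did not pass the threshold.

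The called genes that encode proteins of the matrix and of cell adhesion were all lower in Lipo-CGS. Reln encodes reelin, a large secreted glycoprotein best known as a guide for migrating neurons, and stood at 0.42, 0.49 and 0.32 FPKM in the Lipo-CGS libraries, against 2.33, 2.75 and 2.25 FPKM in the Lipo libraries. Its log2 fold change was -1.69 (standard error 0.16, limma adjusted p = 0.00183). All 3 Lipo-CGS values also lay below the 6 Saline and Uninvolved values, at 1.15 to 1.88 and 0.98 to 1.20 FPKM. Npnt encodes nephronectin, a matrix ligand of integrin alpha 8 beta 1, and stood at 1.09, 0.97 and 1.17 FPKM in Lipo-CGS, against 4.48, 4.32 and 4.24 FPKM in Lipo (log2 fold change -1.62, standard error 0.16, limma adjusted p = 0.00183). The spread within each group was small beside the difference. Npnt was lower still in Saline, at 0.12 to 0.37 FPKM, and in Uninvolved knees, at 0.07 to 0.16 FPKM. Vcan encodes versican, a large proteoglycan of loose and provisional matrix that binds hyaluronan, and had 12.2, 18.4 and 12.9 FPKM in Lipo-CGS, against 33.1, 30.8 and 27.1 FPKM in Lipo (log2 fold change -1.06, standard error 0.14, limma adjusted p = 0.0135). The Lipo-CGS values of Vcan spanned the levels of Saline, at 14.9 to 16.3 FPKM, and overlapped those of Uninvolved knees, at 11.9 to 13.1 FPKM.

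Secreted and surface signals were the second group among the genes called lower. Tnfsf18 encodes GITRL, a ligand of the TNF superfamily that costimulates T cells, and stood at 9.19, 13.4 and 11.7 FPKM in Lipo-CGS, against 58.1, 26.1 and 36.1 FPKM in Lipo. Lipo replicate 1 held the highest value, and the groups did not overlap (log2 fold change -1.70, standard error 0.27, limma adjusted p = 0.0373). Pdgfc encodes a platelet-derived growth factor that acts on mesenchymal cells, and had 7.64, 9.36 and 8.66 FPKM in Lipo-CGS, against 17.9, 22.2 and 19.4 FPKM in Lipo (log2 fold change -1.17, standard error 0.16, limma adjusted p = 0.0181). Avpr1a encodes the V1a vasopressin receptor, which signals through Gq, and had 2.64, 3.56 and 2.36 FPKM in Lipo-CGS, against 13.4, 7.22 and 8.88 FPKM in Lipo (log2 fold change -1.59, standard error 0.23, limma adjusted p = 0.0194). Each of these 3 genes was expressed in every library of both groups, and no Lipo-CGS value reached the lowest Lipo value.

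Enzymes, an inhibitor of proteases and a repeat protein completed the genes called lower. Aldh1a3, an enzyme that makes retinoic acid, stood at 1.83, 2.07 and 2.05 FPKM in Lipo-CGS, against 5.82, 5.19 and 4.79 FPKM in Lipo (log2 fold change -1.21, standard error 0.13, limma adjusted p = 0.00245). The Lipo values overlapped those of Saline, 4.83 to 5.07 FPKM, and Uninvolved knees, 3.75 to 5.35 FPKM, and the Lipo-CGS values lay below both. Car3 encodes carbonic anhydrase 3, an abundant enzyme of slow muscle and fat, and had 29.9, 29.4 and 34.2 FPKM in Lipo-CGS, against 60.7, 96.95 and 88.4 FPKM in Lipo (log2 fold change -1.36, standard error 0.22, limma adjusted p = 0.0411). Both groups were above Saline, at 8.83 to 14.9 FPKM, and Uninvolved knees, at 10.6 to 17.5 FPKM. Serpinb2 encodes plasminogen activator inhibitor 2 and had 0.52, 1.01 and 0.55 FPKM in Lipo-CGS, against 3.95, 3.41 and 2.79 FPKM in Lipo (log2 fold change -1.72, standard error 0.25, limma adjusted p = 0.0212). Ttc9, a tetratricopeptide repeat protein, had 0.74, 0.76 and 0.82 FPKM in Lipo-CGS, against 2.02, 2.06 and 2.71 FPKM in Lipo (log2 fold change -1.11, standard error 0.15, limma adjusted p = 0.015), and its Lipo-CGS values were the lowest of all 12 libraries.

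Among the genes called higher, 4 encode signals or regulators of signaling. Junb, a subunit of the transcription factor AP-1, stood at 61.4, 39.6 and 57.04 FPKM in Lipo-CGS, against 19.8, 25.4 and 26.6 FPKM in Lipo (log2 fold change 1.11, standard error 0.18, limma adjusted p = 0.0373). Both groups were far under Saline, at 188 to 217 FPKM, and Uninvolved knees, at 163 to 227 FPKM. Socs3, an inhibitor of cytokine receptor signaling through JAK and STAT, had 18.6, 12.7 and 16.8 FPKM in Lipo-CGS, against 7.62, 8.56 and 8.39 FPKM in Lipo (log2 fold change 0.91, standard error 0.14, limma adjusted p = 0.0262), and its Lipo-CGS values overlapped those of Saline and Uninvolved knees. Rcan1, which binds and inhibits the phosphatase calcineurin, had 72.7, 55.8 and 75.5 FPKM in Lipo-CGS, against 28.5, 41.5 and 31.7 FPKM in Lipo (log2 fold change 1.00, standard error 0.15, limma adjusted p = 0.0212). Its Lipo values overlapped those of Saline, 34.9 to 41.6 FPKM, and Uninvolved knees, 36.1 to 39.4 FPKM, and its Lipo-CGS values above all 9 other libraries. Cxcl16, a chemokine made as a transmembrane protein, had 10.98, 11.9 and 11.02 FPKM in Lipo-CGS, against 5.75, 7.10 and 6.37 FPKM in Lipo (log2 fold change 0.78, standard error 0.10, limma adjusted p = 0.0135).

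The other genes called higher were a transcription factor, a secreted glycoprotein, a GTPase and enzymes of metabolism. Myoc encodes myocilin, a secreted glycoprotein known from the eye, and stood at 30.7, 27.2 and 41.2 FPKM in Lipo-CGS, against 4.84, 8.27 and 7.58 FPKM in Lipo, the widest fold among the called genes (log2 fold change 2.19, standard error 0.34, limma adjusted p = 0.0309). Tbx4, a T-box factor of the hindlimb, had 5.31, 4.22 and 3.81 FPKM in Lipo-CGS, against 1.57, 1.68 and 1.67 FPKM in Lipo (log2 fold change 1.20, standard error 0.16, limma adjusted p = 0.0162). Rnd1, an atypical GTPase that loosens actin stress fibers, had 19.2, 14.1 and 21.9 FPKM in Lipo-CGS, against 10.5, 9.31 and 9.81 FPKM in Lipo (log2 fold change 0.85, standard error 0.14, limma adjusted p = 0.0411). These 3 genes had no overlap between the groups. Grhpr, the enzyme that reduces glyoxylate, had 9.60, 8.32 and 9.78 FPKM in Lipo-CGS, against 4.94, 6.09 and 5.59 FPKM in Lipo (log2 fold change 0.69, standard error 0.11, limma adjusted p = 0.0309), the smallest change among the 19. Fads6, a member of the fatty acid desaturase family, had 2.12, 1.81 and 1.96 FPKM in Lipo-CGS, against 0.64, 0.89 and 0.74 FPKM in Lipo (log2 fold change 0.97, standard error 0.17, limma adjusted p = 0.0497). Both Fads6 and Myoc were higher in each Lipo-CGS library than in any of the 9 others.

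**Figure D2:**
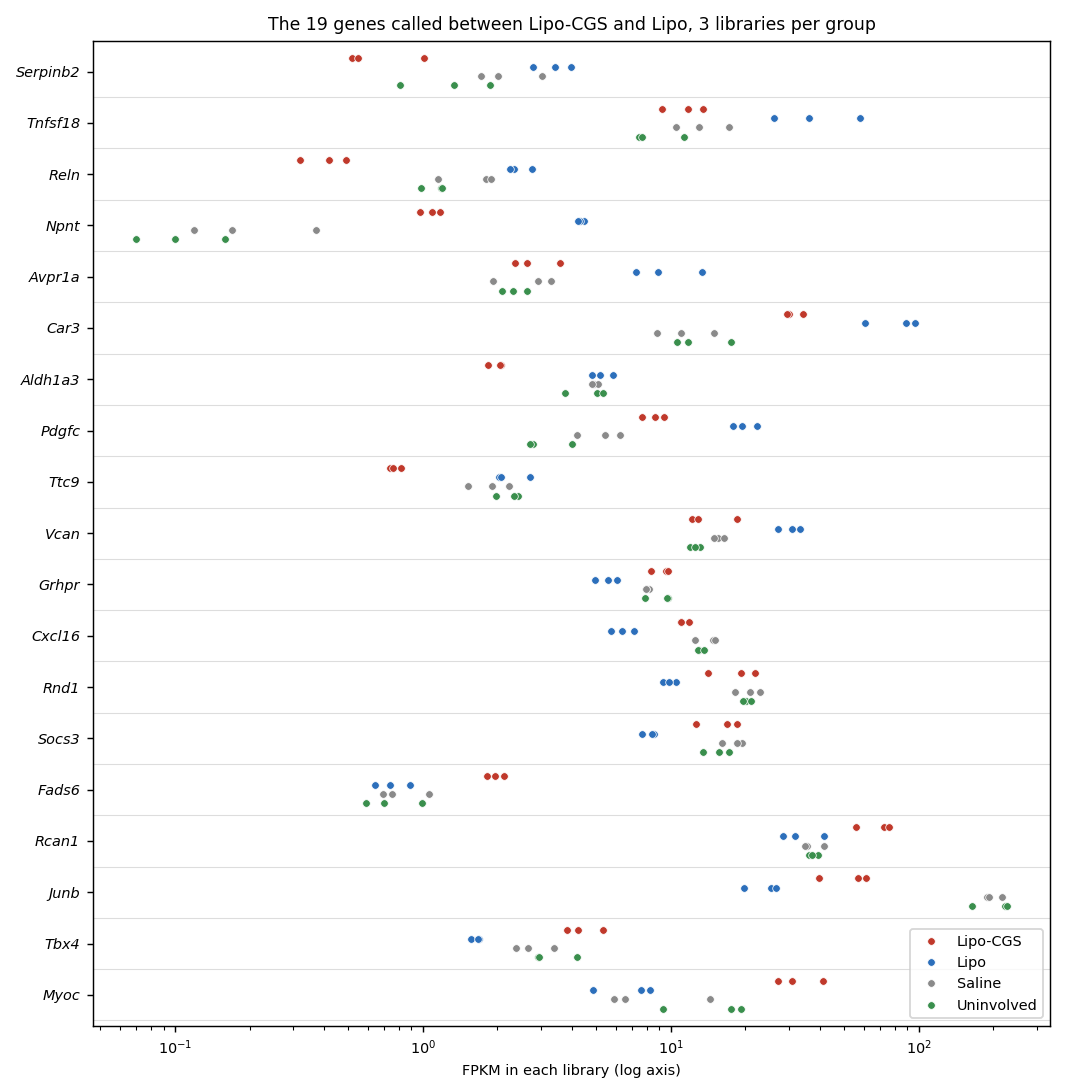
FPKM of the 19 called genes on a log axis, with 1 row per gene and 1 point per library, in each row from top to bottom Lipo-CGS (red), Lipo (blue), Saline (gray) and Uninvolved (green). In each row the 3 Lipo-CGS points lie all to the left or all to the right of the 3 Lipo points, while their place against Saline and Uninvolved differs between genes.

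Against the reference levels the 19 genes took different positions. In 8 of them the Lipo-CGS range overlapped that of Uninvolved knees while the Lipo range did not: Serpinb2, Tnfsf18, Avpr1a, Vcan, Grhpr, Rnd1, Socs3 and Tbx4. In 4 others the Lipo range overlapped that of Uninvolved knees while the Lipo-CGS range did not: Aldh1a3, Ttc9, Fads6 and Rcan1. In the other 7 neither did. Rnd1, for example, had 14.1 to 21.9 FPKM in Lipo-CGS and 9.31 to 10.5 FPKM in Lipo, with 18.2 to 22.99 FPKM in Saline and 19.5 to 21.1 FPKM in Uninvolved knees. Overlap of ranges of 3 libraries was not tested and is not a sign that levels were equal.

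The promoters of the called genes are shown where they hold a match to the cAMP response element (CRE), since A2AR signals through cAMP. RefSeq (build GRCr8, not the Rnor_6.0 of the authors' alignment) gave 17 windows for 16 of the 19 genes, each from 250 bases before to 50 after a start site, and none was used for Car3, Ttc9 and Rnd1. Both strands were searched for the full CRE TGACGTCA, for its half-site TGACG and for the AP-1 site TGACTCA. The full CRE holds the half-site on each strand. The AP-1 site is the full CRE without the G that follows TGAC, and it does not hold the half-site. The 5 windows with a match follow, 5′ to 3′ on the strand of the gene, with matches in capitals: Rcan1 (chr11:45118187-45118486, minus strand), Junb (chr19:40080876-40081175, plus strand), Tbx4 (chr10:71228306-71228605, plus strand), Avpr1a (chr7:59999493-59999792, plus strand) and Vcan (chr2:22595808-22596107, minus strand).
Rcan1: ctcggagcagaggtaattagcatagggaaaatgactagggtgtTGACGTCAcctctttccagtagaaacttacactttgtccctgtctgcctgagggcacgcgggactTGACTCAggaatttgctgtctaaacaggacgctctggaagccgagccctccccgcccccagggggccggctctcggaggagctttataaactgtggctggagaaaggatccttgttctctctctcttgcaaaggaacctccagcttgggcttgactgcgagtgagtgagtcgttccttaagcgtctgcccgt
Junb: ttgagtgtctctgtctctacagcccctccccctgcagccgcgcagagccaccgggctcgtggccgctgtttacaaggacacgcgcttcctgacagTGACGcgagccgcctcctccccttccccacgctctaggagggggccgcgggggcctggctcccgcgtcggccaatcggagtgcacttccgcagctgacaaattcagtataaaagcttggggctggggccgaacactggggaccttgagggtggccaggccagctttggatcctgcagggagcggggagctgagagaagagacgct
Tbx4: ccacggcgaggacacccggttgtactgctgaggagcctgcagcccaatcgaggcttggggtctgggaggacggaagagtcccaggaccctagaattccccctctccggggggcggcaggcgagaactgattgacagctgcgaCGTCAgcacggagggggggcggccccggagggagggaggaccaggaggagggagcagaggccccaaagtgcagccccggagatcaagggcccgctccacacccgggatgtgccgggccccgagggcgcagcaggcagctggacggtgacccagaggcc
Avpr1a: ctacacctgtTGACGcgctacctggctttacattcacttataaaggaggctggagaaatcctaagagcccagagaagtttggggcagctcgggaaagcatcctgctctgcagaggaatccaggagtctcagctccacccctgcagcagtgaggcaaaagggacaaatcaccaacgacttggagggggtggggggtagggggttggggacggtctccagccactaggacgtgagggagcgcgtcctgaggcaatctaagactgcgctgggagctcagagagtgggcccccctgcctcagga
Vcan: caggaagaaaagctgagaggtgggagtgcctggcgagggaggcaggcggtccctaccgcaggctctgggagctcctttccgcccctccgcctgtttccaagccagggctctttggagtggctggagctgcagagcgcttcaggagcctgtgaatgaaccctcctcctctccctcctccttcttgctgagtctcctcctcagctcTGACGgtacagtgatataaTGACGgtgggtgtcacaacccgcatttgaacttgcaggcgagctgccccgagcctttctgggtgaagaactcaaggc

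The only full CRE was in the window of Rcan1, at base -207 from the start site, and the same window held the only AP-1 site, at base -142. The half-site began at base -155 in Junb, -108 in Tbx4, -240 in Avpr1a and at bases -46 and -27 in the first of the windows of Vcan, whose other start site had no match. A half-site was thus in 3 of the 8 windows of genes called higher, Rcan1, Junb and Tbx4, and in 2 of the 9 of genes called lower, Avpr1a and Vcan. Over all 17 windows the half-site was in 29.4%, against 32.4% of the 9258 windows of tested genes and 21.2% of all 33469 windows. The full CRE was in 5.88% of the 17, against 3.10% of the windows of tested genes and 1.83% of all windows. For the AP-1 site the shares were 5.88%, against 3.38% and 4.63%. The shares of the half-site in the called genes were thus near that of tested genes. A match of letters is a description of the sequence and does not show binding.

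The calls differed in how far they rested on single libraries. When each of the 6 Lipo-CGS and Lipo libraries was left out in turn, Reln, Npnt and Aldh1a3 were called in all 6 fits, and Aldh1a3 also in each of the 11 other settings tried. Without Lipo replicate 1, without Lipo-CGS replicate 1 or without Lipo-CGS replicate 3 these were the only called genes, whereas 22 were called without Lipo-CGS replicate 2, 28 without Lipo replicate 3 and 46 without Lipo replicate 2. The fit to 11 libraries without Saline replicate 3, whose values enter the shared spread, called 47 genes higher and 61 lower, with all 19 among them. Car3 was called in 0 of the 6 fits and Tnfsf18, Rnd1, Fads6 and Myoc in 1 each. No fold change of a called gene turned its direction in any of these fits. The fold change of Tnfsf18 ranged from -1.97 to -1.40 on the log2 scale over the fits, that of Myoc from 1.97 to 2.33 and that of Reln from -1.76 to -1.62.

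**Figure D3:**
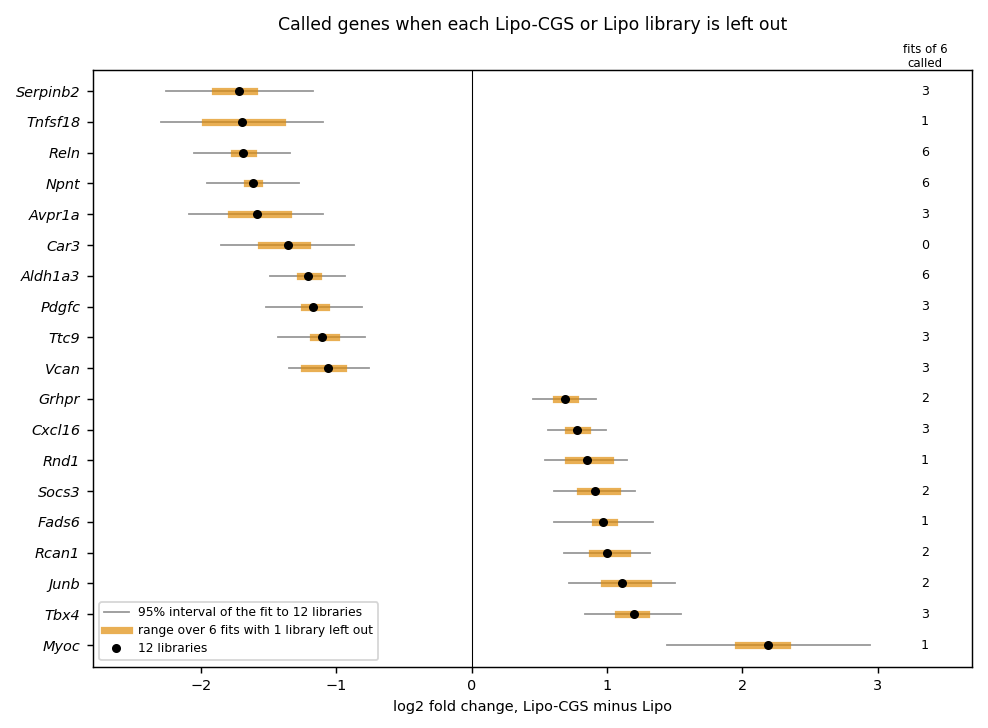
Log2 fold change of each called gene with all 12 libraries (black point, with the 95% interval as a gray line) and its range when each of the 6 Lipo-CGS and Lipo libraries was left out in turn (orange bar), with the number of these 6 fits that called the gene at the right. No bar crosses 0, and Reln, Npnt and Aldh1a3 were called in all 6 fits.

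Just outside the call lay 53 genes that passed the unadjusted p threshold and the fold change with no overlap between the groups, 32 above and 21 below, and 12 of each are named by their fold change. Of these 24 genes, 23 were called without Saline replicate 3, Hpse being the exception. The 24 were chosen for lying near the threshold, and that fit called 47 genes higher and 61 lower in all, so it is no separate support for them. Each of the 24 was called in only 2 to 4 of the 17 alternative fits. Those with the largest differences above 0 included proteins of cartilage and of developmental signaling. Cnmd encodes chondromodulin, a cartilage protein that inhibits vessel growth, and had 13.9, 7.17 and 7.02 FPKM in Lipo-CGS, against 0.81, 2.78 and 1.68 FPKM in Lipo (log2 fold change 2.16, standard error 0.39, limma adjusted p = 0.0607). Its Lipo-CGS values were above all 9 other libraries. Gas1, a membrane protein that binds hedgehog ligands and was found in arrested cells, had 232, 147 and 159 FPKM in Lipo-CGS, against 47.1, 91.8 and 87.5 FPKM in Lipo (log2 fold change 1.28, limma adjusted p = 0.0607). Lgr6, a receptor of R-spondins, had 5.84, 3.79 and 4.15 FPKM in Lipo-CGS, against 1.12, 1.59 and 1.70 FPKM in Lipo (log2 fold change 1.36, limma adjusted p = 0.0702). Cntfr, the binding receptor of ciliary neurotrophic factor, had 4.39, 5.06 and 4.42 FPKM in Lipo-CGS, against 0.96, 1.87 and 1.28 FPKM in Lipo (log2 fold change 1.48, limma adjusted p = 0.0632). Bst2, the interferon-induced protein tetherin, had 2.44, 2.76 and 2.14 FPKM in Lipo-CGS, against 0.54, 0.94 and 0.55 FPKM in Lipo (log2 fold change 1.34, limma adjusted p = 0.0614). The rest of the 12 were Mgarp, Net1, Aldoc, Gpr146, Lrrn2, P4htm and the unnamed locus LOC103694872, with fold changes from 0.94 for P4htm to 1.39 for LOC103694872. Net1, a guanine nucleotide exchange factor, had 18.3, 12.1 and 18.5 FPKM in Lipo-CGS, against 5.04, 8.19 and 7.34 FPKM in Lipo (log2 fold change 1.19, limma adjusted p = 0.0602).

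Those with the largest differences below 0 included regulators of the cell cycle, matrix and retinoic acid. Col3a1, the fibrillar collagen of loose connective tissue, had 497, 538 and 484 FPKM in Lipo-CGS, against 897, 991 and 1025 FPKM in Lipo (log2 fold change -0.94, standard error 0.17, limma adjusted p = 0.0613). Pak1, a kinase activated by Rac and Cdc42, had 3.30, 4.50 and 4.09 FPKM in Lipo-CGS, against 14.7, 8.98 and 7.64 FPKM in Lipo (log2 fold change -1.25, limma adjusted p = 0.0681). Cdk6, a kinase of the G1 phase, had 6.31, 7.26 and 6.94 FPKM in Lipo-CGS, against 16.7, 13.1 and 11.2 FPKM in Lipo (log2 fold change -0.94, limma adjusted p = 0.0702). Cdkn2b encodes p15, an inhibitor of that kinase, and lay below as well, at 1.62, 1.68 and 1.97 FPKM in Lipo-CGS, against 4.91, 3.42 and 3.25 FPKM in Lipo (log2 fold change -0.93, limma adjusted p = 0.0614). Cyp26b1, which breaks retinoic acid down, had 14.5, 16.4 and 13.8 FPKM in Lipo-CGS, against 34.5, 26.1 and 25.2 FPKM in Lipo (log2 fold change -0.91, limma adjusted p = 0.0614), so an enzyme of synthesis (Aldh1a3) and an enzyme of breakdown both lay below. Hpse, the enzyme that cuts heparan sulfate, had 3.92, 4.79 and 3.12 FPKM in Lipo-CGS, against 14.6, 8.80 and 6.32 FPKM in Lipo (log2 fold change -1.17, limma adjusted p = 0.0704). Npvf, the precursor of RFamide neuropeptides, had 4.03, 3.81 and 4.87 FPKM in Lipo-CGS, against 7.73, 10.9 and 8.74 FPKM in Lipo (log2 fold change -1.02, limma adjusted p = 0.0614), and 0.00 to 0.05 FPKM in Saline and 0.13 to 0.55 FPKM in Uninvolved knees. The rest of the 12 were Smpd3, Cd200r1, Sqrdl, Abca9 and Gprc5a, with fold changes from -1.23 for Smpd3 to -0.85 for Gprc5a.

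Gene families were read from 68 lists by function, which hold 1900 of the tested genes and 14 of the 19 called. A family is described by the number of its tested members called, by how many members had all 3 Lipo-CGS libraries above or below all 3 Lipo libraries, and by its median log2 fold change, to be read against 14.7% above, 13.1% below and a median of 0.00 over all tested genes. Without Lipo replicate 1 these shares over all tested genes were 17.3% above and 17.4% below. Called members were in 15 of the lists, never more than 2 in one. The members of a list are regulated together and share their libraries, and a share that departs from that of all genes is a description of these 6 libraries.

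**Figure D4:**
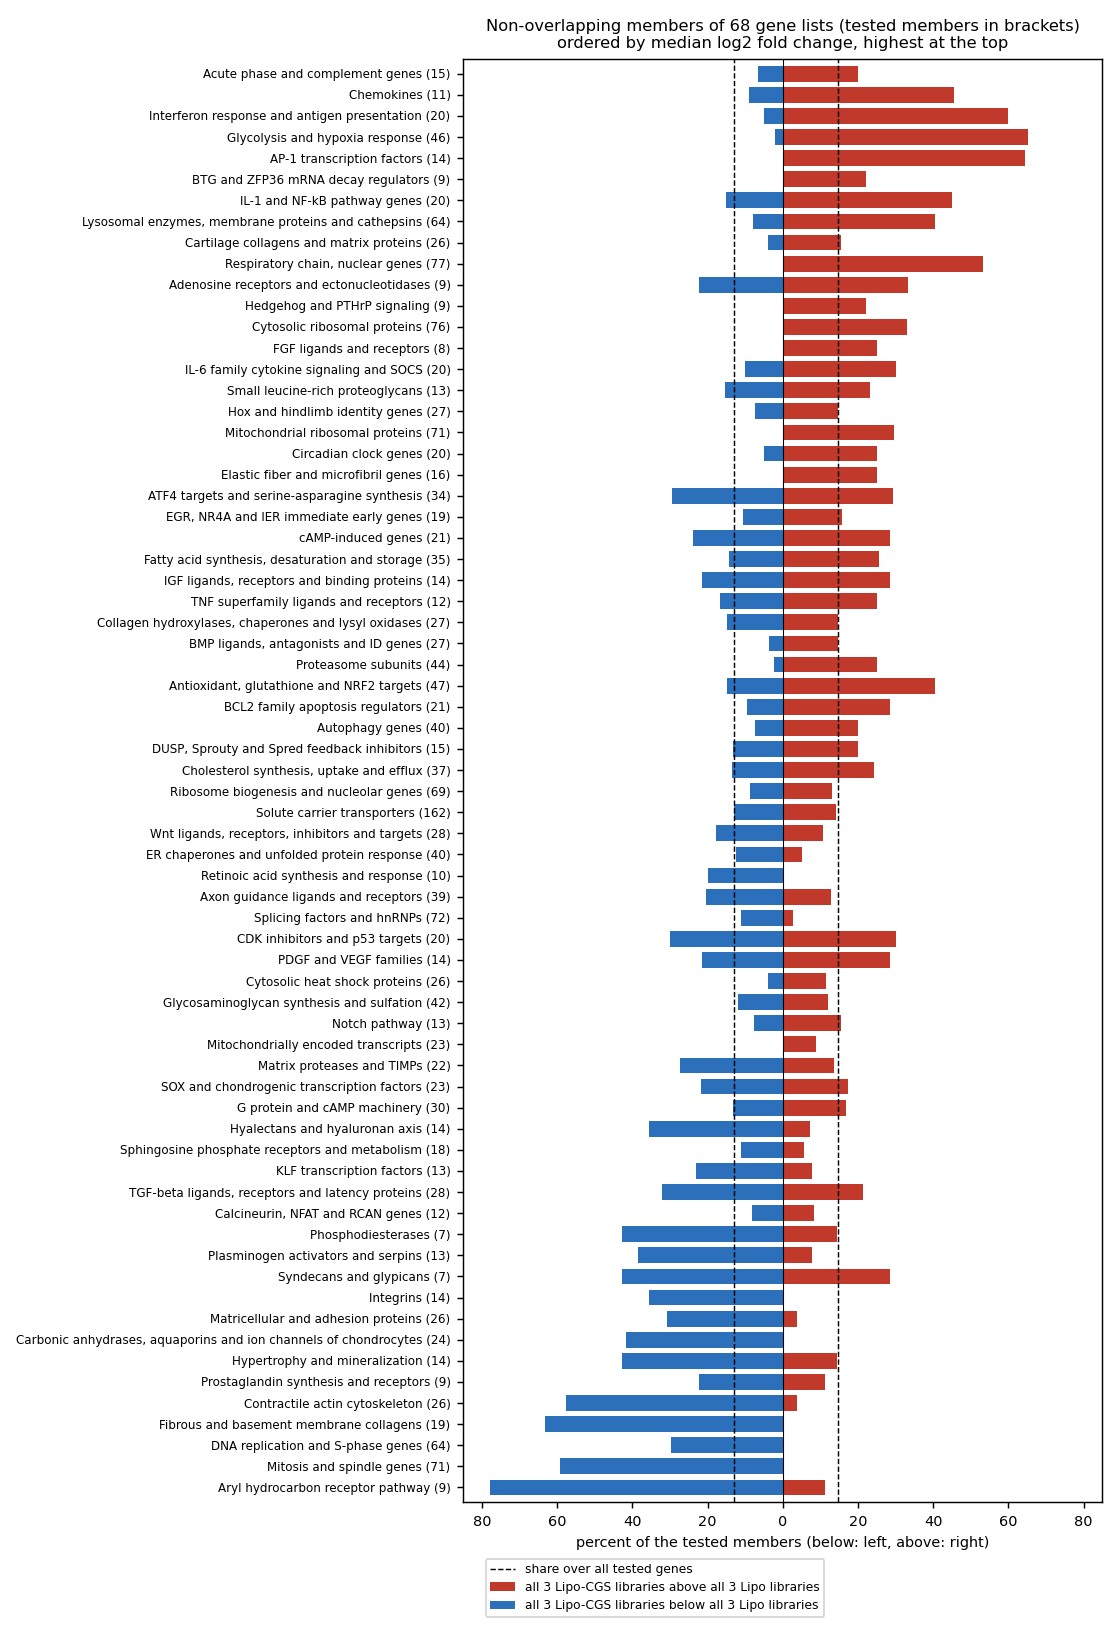
Share of the tested members of each of 68 gene lists, in percent, in which all 3 Lipo-CGS libraries lay above (red, to the right) or below (blue, to the left) all 3 Lipo libraries, with the lists ordered by their median log2 fold change and dashed lines at the shares over all tested genes, 14.7% and 13.1%. Glycolysis and hypoxia genes, interferon genes, AP-1 factors and nuclear genes of the respiratory chain reached furthest to the right, and the aryl hydrocarbon receptor pathway, the fibrous collagens, mitosis genes and contractile genes furthest to the left.

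The receptor that CGS21680 acts on was at the lower edge of detection. Adora2a, which encodes A2AR, had 0.12, 0.05 and 0.05 FPKM in Lipo-CGS and 0.06, 0.07 and 0.07 FPKM in Lipo, and Adora1 had 0.84, 0.40 and 0.70 FPKM in Lipo-CGS and 0.10, 0.43 and 0.35 FPKM in Lipo. Adora2b, the other receptor coupled to the stimulatory G protein, had 0.35, 0.22 and 0.55 FPKM in Lipo-CGS and 0.20, 0.30 and 0.32 FPKM in Lipo, and Adora3 was listed at 0 in all 12 libraries. None of these was high enough to be tested, and a difference in Adora2a was not detectable at these levels. Nt5e, the ectoenzyme CD73 that forms adenosine outside the cell, had 63.8 to 75.9 FPKM in Lipo-CGS and 46.8 to 75.9 FPKM in Lipo (log2 fold change 0.20, 95% interval -0.17 to 0.57). Among the genes of adenosine handling inside the cell, Ampd3, an AMP deaminase, lay above, with 19.2, 18.9 and 20.6 FPKM in Lipo-CGS, against 10.8, 12.95 and 14.4 FPKM in Lipo (log2 fold change 0.61, limma adjusted p = 0.0613). Pnp, the phosphorylase of inosine, lay above likewise, with 662, 522 and 619.9 FPKM in Lipo-CGS, against 287, 415 and 410.4 FPKM in Lipo (log2 fold change 0.71, limma adjusted p = 0.0835). In all, 3 of the 9 tested members of the adenosine list lay above and 2 below.

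Of 30 genes of G proteins, adenylyl cyclases, protein kinase A and CREB, none was called, 5 lay above and 4 below, with a median of -0.06. Gnas, the stimulatory G protein, had a log2 fold change of 0.18 (95% interval -0.20 to 0.56). For Creb1 it was -0.30 (-0.64 to 0.04). Of 7 tested phosphodiesterases 1 lay above and 3 below. Of 21 genes known to be induced by cAMP, Junb was called higher, 6 lay above and 5 below, with a median of 0.09. Pde4b, a cAMP phosphodiesterase that cAMP itself induces, had 7.72, 7.64 and 8.95 FPKM in Lipo-CGS, against 3.83, 5.43 and 6.47 FPKM in Lipo (log2 fold change 0.61, limma adjusted p = 0.114). Gem, a GTPase of the same list, had 1.73, 1.33 and 2.30 FPKM in Lipo-CGS, against 0.61, 0.63 and 0.84 FPKM in Lipo (log2 fold change 0.92, limma adjusted p = 0.09). By contrast Crem, the cAMP-inducible modulator of CREB, was at 2.88 to 3.72 FPKM in Lipo-CGS and 3.0 to 3.39 FPKM in Lipo, and Rgs2, a brake on G proteins that cAMP can induce, lay below, with 0.71, 0.94 and 1.14 FPKM in Lipo-CGS, against 1.43, 1.89 and 2.25 FPKM in Lipo (log2 fold change -0.72, limma adjusted p = 0.174). Members of the cAMP list thus lay on both sides, 7 above and 6 below without Lipo replicate 1.

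The genes of the AP-1 list lay above in 9 of 14 members and below in none, with Junb the only one called and a median of 0.41 (0.30 without Lipo replicate 1). Fos, the partner of Jun proteins in AP-1, had 6.66, 6.11 and 6.0 FPKM in Lipo-CGS, against 3.07, 4.0 and 5.03 FPKM in Lipo (log2 fold change 0.60, limma adjusted p = 0.0808), and 92.5 to 99.3 FPKM in Saline and 68.5 to 86.6 FPKM in Uninvolved knees. Of 19 immediate early genes of the EGR, NR4A and IER families 3 lay above and 2 below, with a median of 0.09 and 13 fitted differences above 0, and without Lipo replicate 1 6 lay above and 2 below. Egr1 had 14.3, 19.2 and 14.3 FPKM in Lipo-CGS and 17.4, 12.04 and 12.6 FPKM in Lipo, and Nr4a1, a nuclear receptor induced within minutes by cAMP, had 6.73, 5.65 and 6.76 FPKM in Lipo-CGS and 7.48, 4.37 and 6.34 FPKM in Lipo, with overlap in both. Zfp36 encodes tristetraprolin, which marks cytokine mRNAs for decay, and had 26.99, 23.2 and 27.6 FPKM in Lipo-CGS, against 18.8, 18.4 and 19.6 FPKM in Lipo (log2 fold change 0.44, limma adjusted p = 0.0704). Btg2, an antiproliferative gene, had 46.2, 35.8 and 47.6 FPKM in Lipo-CGS, against 26.3, 25.9 and 31.3 FPKM in Lipo (log2 fold change 0.62, limma adjusted p = 0.0643).

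The cytokine signaling and chemokine lists held the called genes Socs3 and Cxcl16. Of 20 genes of the IL-6 family and its SOCS inhibitors, 6 lay above and 2 below, with a median of 0.15 (6 above, 5 below and 0.08 without Lipo replicate 1). Socs1, an inhibitor of JAK kinases, had 3.70, 2.47 and 3.05 FPKM in Lipo-CGS, against 1.49, 1.66 and 1.74 FPKM in Lipo (log2 fold change 0.73, limma adjusted p = 0.0614). Il6r, the IL-6 receptor, had 6.47, 5.31 and 6.48 FPKM in Lipo-CGS, against 2.23, 3.87 and 3.81 FPKM in Lipo (log2 fold change 0.82, limma adjusted p = 0.0702). Of 11 chemokine genes 5 lay above and 1 below, with a median of 0.67 (0.45 without Lipo replicate 1). Cxcl1, which draws neutrophils, had 41.6, 22.5 and 39.4 FPKM in Lipo-CGS, against 8.54, 16.1 and 11.1 FPKM in Lipo (log2 fold change 1.49, limma adjusted p = 0.0991). Cxcl14, a chemokine of epithelia and connective tissue, had 31.9, 17.1 and 33 FPKM in Lipo-CGS, against 5.04, 11.96 and 14.6 FPKM in Lipo (log2 fold change 1.40, limma adjusted p = 0.121). In both of these Lipo replicate 1 held the lowest value of the 6 libraries.

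Of 20 genes of the IL-1 and NF-kB pathways 9 lay above and 3 below, with a median of 0.29 (0.23 without Lipo replicate 1). Nfkbib, an inhibitor of NF-kB, had 17.9, 13.3 and 16.9 FPKM in Lipo-CGS, against 8.26, 10.2 and 10.2 FPKM in Lipo (log2 fold change 0.71, limma adjusted p = 0.0704). Birc3, an NF-kB target that limits cell death, had 8.57, 5.38 and 8.65 FPKM in Lipo-CGS, against 3.14, 4.52 and 4.90 FPKM in Lipo (log2 fold change 0.77, limma adjusted p = 0.0997). The opposite end of the list was Il1rl1, the IL-33 receptor ST2, named here after its values were seen, with 2.76, 8.47 and 2.96 FPKM in Lipo-CGS, against 32.99, 16.5 and 13.5 FPKM in Lipo (log2 fold change -2.10, limma adjusted p = 0.155, and 0.0467 without Saline replicate 3), with 15.4, 7.26 and 85.4 FPKM in Saline. The fit without Saline replicate 3 was the only 1 of 17 alternative fits that called Il1rl1. Of 20 genes of the interferon response and antigen presentation 12 lay above and 1 below, with a median of 0.48 (0.36 without Lipo replicate 1). Ifitm3, which blocks virus entry, had 99.2, 79.5 and 116 FPKM in Lipo-CGS, against 31.7, 67.3 and 47.6 FPKM in Lipo (log2 fold change 1.05, limma adjusted p = 0.101). Tapbp, the chaperone tapasin of class I antigen presentation, had 61.9, 49.1 and 51.5 FPKM in Lipo-CGS, against 30.2, 43.8 and 33.5 FPKM in Lipo (log2 fold change 0.60, limma adjusted p = 0.1). The summed leukocyte markers were at 26.8 to 36.7 FPKM in Lipo-CGS and 23.8 to 26.3 FPKM in Lipo. Most of the sum was Cd14, which overlapped (32.2, 23.4 and 30.9 FPKM in Lipo-CGS, against 19.9, 24.1 and 21.1 FPKM in Lipo). Of the 3 markers tested Cd68 lay above, with 3.69, 2.55 and 2.47 FPKM in Lipo-CGS, against 1.96, 1.40 and 1.52 FPKM in Lipo. Fcer1g overlapped, with 0.69, 0.70 and 0.85 FPKM in Lipo-CGS and 1.52, 0.65 and 1.91 FPKM in Lipo (log2 fold change -0.51). Of all 13 markers 8 stayed under 1 FPKM in all 6 libraries, and the part of leukocytes in these families was not tested.

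Acute phase and complement genes had the highest median of all 68 lists, 1.05, but 3 of 15 members lay above without overlap, and the median was 0.35 without Lipo replicate 1. The mean of the list was 0.92, 0.10 and 1.01 in the Lipo-CGS libraries, against -1.08, 0.27 and 0.33 in the Lipo libraries, so it varied within both groups. Chi3l1, a secreted glycoprotein of inflamed joints, had 903, 204 and 1097 FPKM in Lipo-CGS, against 33.4, 206 and 287 FPKM in Lipo (log2 fold change 2.22, standard error 0.79, limma adjusted p = 0.177). C3, the central complement protein, named after its values were seen, had 44.9, 19.2 and 49.1 FPKM in Lipo-CGS and 2.62, 24.5 and 33.9 FPKM in Lipo, also with overlap. Lcn2, lipocalin 2, did not overlap, with 388, 233 and 465 FPKM in Lipo-CGS, against 64.1, 196 and 140.0 FPKM in Lipo (log2 fold change 1.52, limma adjusted p = 0.102). Sod2, the mitochondrial superoxide dismutase that NF-kB induces, had 353, 194 and 435 FPKM in Lipo-CGS, against 58.6, 153 and 127 FPKM in Lipo (log2 fold change 1.57, limma adjusted p = 0.0846). The metallothionein Mt2A, which binds zinc, had 312, 176 and 409.8 FPKM in Lipo-CGS, against 31.5, 114 and 102 FPKM in Lipo (log2 fold change 1.97, limma adjusted p = 0.0878). In Lcn2, Sod2 and Mt2A Lipo-CGS replicate 2 again held the lowest Lipo-CGS and Lipo replicate 1 the lowest Lipo value.

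**Figure D5:**
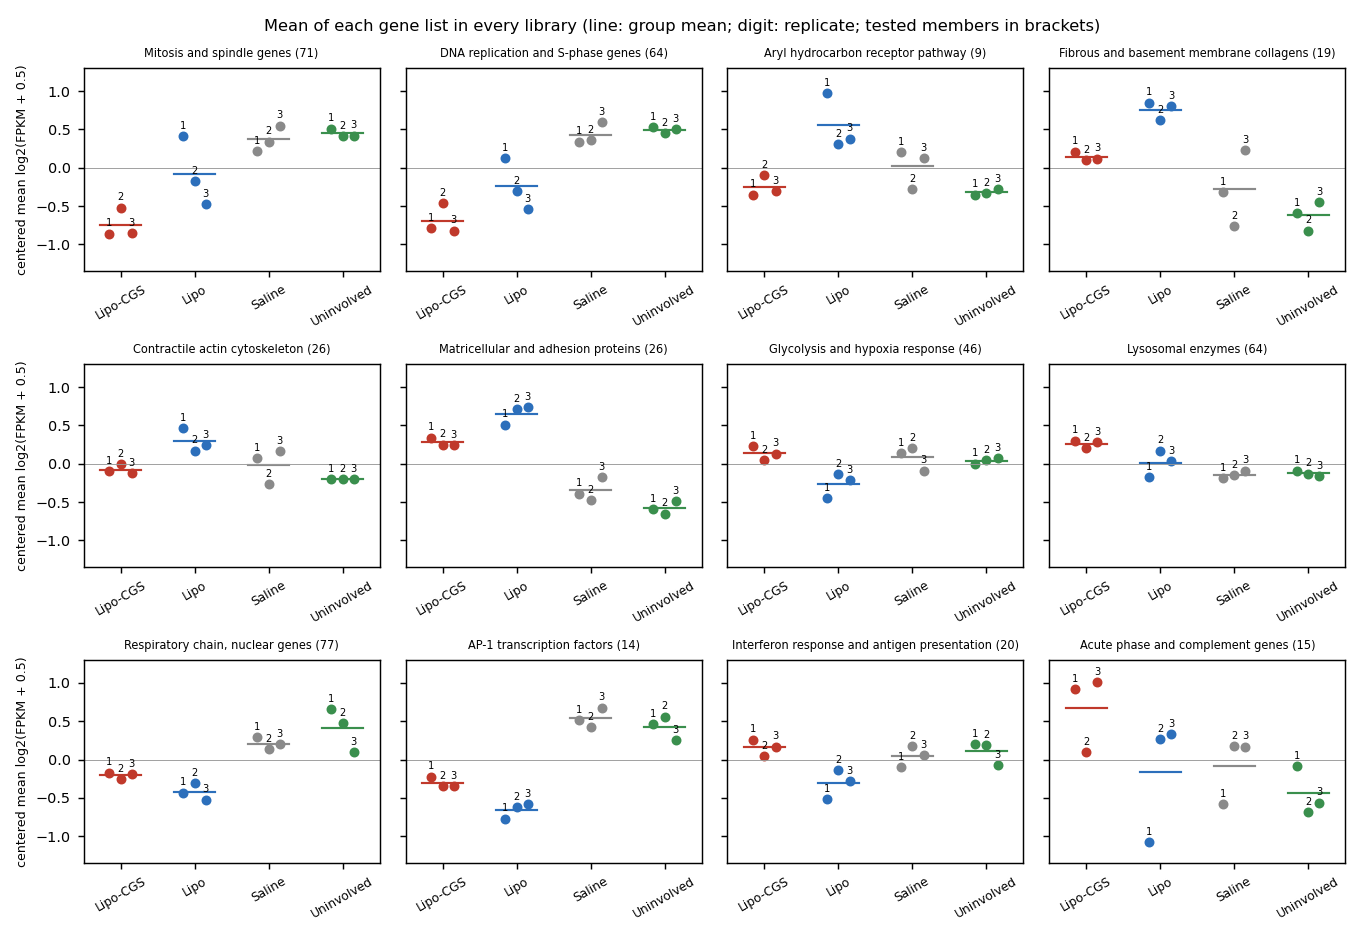
Mean of the members of 12 gene lists in each of the 12 libraries, on the log2 scale relative to the mean of each gene over all 12, with the groups from left to right Lipo-CGS, Lipo, Saline and Uninvolved, each point a library with its replicate number and each line a group mean. The Lipo-CGS and Lipo points do not overlap for the collagens, contractile, glycolysis, mitosis, lysosomal and respiratory lists among others, and overlap for DNA replication and acute phase genes.

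The aryl hydrocarbon receptor (AhR) pathway had the lowest median of all lists, -0.72 (-0.63 without Lipo replicate 1). AhR is a receptor of aromatic ligands that induces its own repressor and enzymes that clear such ligands. Of its 9 tested genes 7 lay below, 1 above and none was called. Ahrr, the repressor, had 0.47, 0.95 and 0.56 FPKM in Lipo-CGS, against 4.52, 2.37 and 2.72 FPKM in Lipo (log2 fold change -1.65, standard error 0.37, limma adjusted p = 0.0735). Ahr itself had 1.34, 2.30 and 1.51 FPKM in Lipo-CGS, against 5.08, 2.66 and 3.27 FPKM in Lipo (log2 fold change -0.89, limma adjusted p = 0.131). Tiparp, an ADP-ribosylase that AhR induces, had 7.41, 12.8 and 8.99 FPKM in Lipo-CGS, against 18.2, 14.9 and 14.98 FPKM in Lipo (log2 fold change -0.72, limma adjusted p = 0.134). The textbook targets Cyp1a1 and Cyp1b1, named after their values were seen, lay below too. Cyp1a1 had 0.19, 0.31 and 0.20 FPKM in Lipo-CGS, against 5.64, 1.04 and 0.85 FPKM in Lipo (log2 fold change -1.68, limma adjusted p = 0.136), and Cyp1b1 had 33.5, 33.8 and 31.7 FPKM in Lipo-CGS, against 76.5, 42.2 and 48.6 FPKM in Lipo (log2 fold change -0.70, limma adjusted p = 0.204). Lipo replicate 1 was the highest of the 6 libraries in each of these 5 genes. The quinone reductase Nqo1, a target of AhR and of NRF2, had 67.3, 107 and 70.1 FPKM in Lipo-CGS, against 431, 115 and 167 FPKM in Lipo (log2 fold change -1.34, limma adjusted p = 0.119).

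Growth factor families had members on both sides. Of 28 genes of TGF-beta ligands, receptors and latency proteins 6 lay above and 9 below, with none called and a median of -0.09. Tgfb3 had 138, 150.5 and 138 FPKM in Lipo-CGS, against 218, 185 and 202 FPKM in Lipo (log2 fold change -0.50, limma adjusted p = 0.12). Tgfb2 had 66.98, 61.5 and 70.1 FPKM in Lipo-CGS, against 77.2, 84.3 and 81.9 FPKM in Lipo (log2 fold change -0.29, limma adjusted p = 0.183). Tgfb1 overlapped, with 64.6, 61.4 and 59.9 FPKM in Lipo-CGS and 94.02, 62.97 and 63.7 FPKM in Lipo (log2 fold change -0.22, 95% interval -0.51 to 0.07). Both liposome groups had more Tgfb2 and Tgfb3 than the reference groups, where Tgfb3 was at 45.9 to 74.2 FPKM in Saline and 49.3 to 57.6 FPKM in Uninvolved knees. Thbs1, thrombospondin 1, which activates latent TGF-beta, had 1789, 1913 and 1472 FPKM in Lipo-CGS, against 2458, 2894 and 3289 FPKM in Lipo (log2 fold change -0.74, limma adjusted p = 0.102). Tgfbr3, the coreceptor betaglycan, lay on the other side, with 48.4, 47.3 and 51.6 FPKM in Lipo-CGS, against 23.7, 37.6 and 41.8 FPKM in Lipo (log2 fold change 0.55, limma adjusted p = 0.136).

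Of 27 BMP pathway genes 4 lay above and 1 below. Bmp6 had 17.7, 20.04 and 17.2 FPKM in Lipo-CGS, against 12.96, 11.8 and 9.24 FPKM in Lipo (log2 fold change 0.68, limma adjusted p = 0.118), and the BMP antagonist Nog also lay above, with 9.24, 7.10 and 7.81 FPKM in Lipo-CGS, against 2.86, 4.70 and 6.22 FPKM in Lipo (log2 fold change 0.80, limma adjusted p = 0.176). Of 14 genes of the PDGF and VEGF families Pdgfc was called lower, while Vegfa, the main factor of vessel growth, had 74.5, 57.7 and 63.3 FPKM in Lipo-CGS, against 26.9, 30.99 and 49.6 FPKM in Lipo (log2 fold change 0.90, limma adjusted p = 0.0713). Of 28 Wnt pathway genes 3 lay above and 5 below, with a median of 0.01. Lef1, a transcription factor of this pathway, had 0.42, 0.61 and 0.26 FPKM in Lipo-CGS, against 1.83, 1.03 and 1.04 FPKM in Lipo (log2 fold change -0.94, limma adjusted p = 0.0746).

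The genes of hyaline cartilage itself mostly overlapped between the groups. Of 26 cartilage collagens and matrix proteins none was called, 4 lay above and 1 below, and the median of 0.24 was 0.01 without Lipo replicate 1. Col2a1, the chain of type II collagen, had 13372, 9092 and 10454 FPKM in Lipo-CGS and 7067, 11441 and 10834 FPKM in Lipo, with a 95% interval of the log2 fold change from -0.46 to 0.81. Acan, aggrecan, had 1763, 1159 and 1491 FPKM in Lipo-CGS and 1099, 1758 and 1852 FPKM in Lipo (95% interval -0.62 to 0.47). Sox9, their transcription factor, had 46.7, 44.4 and 45.4 FPKM in Lipo-CGS and 31.9, 48.04 and 39.5 FPKM in Lipo (95% interval -0.21 to 0.63). Prg4, lubricin, which lubricates the joint surface, had 478, 236 and 436 FPKM in Lipo-CGS and 138, 284 and 275 FPKM in Lipo (95% interval -0.03 to 1.48). Each of these intervals includes 0 and leaves room for differences in both directions. Ucma, a cartilage protein rich in gamma-carboxyglutamate, lay above without overlap, with 2044, 1401 and 1649 FPKM in Lipo-CGS, against 351, 1224 and 955 FPKM in Lipo (log2 fold change 1.17, limma adjusted p = 0.162). The chondrocyte marker Col11a1 lay below without overlap, with 644, 563 and 549 FPKM in Lipo-CGS, against 679, 783 and 850 FPKM in Lipo (log2 fold change -0.39, 95% interval -0.78 to -0.01, limma adjusted p = 0.261).

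Genes of hypertrophy and mineralization, the changes chondrocytes pass through toward bone, lay below in 6 of 14 members and above in 2, with a median of -0.23 (-0.16 without Lipo replicate 1 and -0.10 without Lipo replicate 2). Ibsp, bone sialoprotein, had 28.6, 20.7 and 24.96 FPKM in Lipo-CGS, against 39.3, 93.2 and 43.7 FPKM in Lipo (log2 fold change -1.13, limma adjusted p = 0.131). Alpl, the alkaline phosphatase of mineralizing tissue, had 4.78, 2.47 and 4.19 FPKM in Lipo-CGS, against 5.05, 8.41 and 10.5 FPKM in Lipo (log2 fold change -0.96, limma adjusted p = 0.107). Runx2, the transcription factor of hypertrophy and bone, had 1.42, 1.24 and 1.23 FPKM in Lipo-CGS, against 1.79, 2.03 and 2.23 FPKM in Lipo (log2 fold change -0.48, limma adjusted p = 0.132). Smpd3, a sphingomyelinase needed for mineralization in mice, had 0.50, 0.26 and 0.43 FPKM in Lipo-CGS, against 1.27, 1.75 and 1.77 FPKM in Lipo (log2 fold change -1.23, limma adjusted p = 0.0624). The osteoblast markers, which include Ibsp and Alpl, summed to 24.2 to 34.5 FPKM in Lipo-CGS and 46.0 to 102 FPKM in Lipo, 6 of the 8 stayed under 1 FPKM in all 6 libraries and Sost was at 0, and their part in this family was not tested.

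Collagens of fibrous tissue and basement membrane lay below in 12 of 19 members and above in 0, with a median of -0.45 (-0.43 without Lipo replicate 1, when 15 lay below). The largest difference was in Col1a1, the chain of type I collagen, with 87.9, 84.04 and 82.98 FPKM in Lipo-CGS, against 1315, 677 and 1020.3 FPKM in Lipo. Its log2 fold change was -3.50, but with a standard error of 0.91 it was not called (limma adjusted p = 0.0992, and 0.0289 without Saline replicate 3). The standard error includes the Saline and Uninvolved libraries, where Col1a1 had 107, 35.8 and 771 FPKM in Saline and 94.3, 20.3 and 129.7 FPKM in Uninvolved knees, so the values within these groups differed by more than 6-fold. Tnn, tenascin W, a matrix protein of bone and injured tissue, had the same pattern, with 0.41, 0.46 and 0.38 FPKM in Lipo-CGS, against 15.8, 5.70 and 12.4 FPKM in Lipo and 0.66, 0.74 and 14.1 FPKM in Saline (log2 fold change -3.58, standard error 0.75, limma adjusted p = 0.0704, and 5.5e-04 without Saline replicate 3). Col1a1 and Tnn were each called in 4 of 17 alternative fits, and in 0 of those that left out a Lipo-CGS or Lipo library. The proteoglycan lumican (Lum), named after its values were seen, also lay below, with 1.07, 2.44 and 2.21 FPKM in Lipo-CGS, against 11.95, 6.80 and 5.47 FPKM in Lipo and 7.78, 5.03 and 136 FPKM in Saline (log2 fold change -1.81, limma adjusted p = 0.317, and 0.0463 without Saline replicate 3). That fit was the only 1 of 17 alternative fits that called Lum. Saline replicate 3 thus held the highest Lum value of all 12 libraries, and in Col1a1 and Tnn it lay within the Lipo range.

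Enzymes that process collagen lay on both sides, with 4 of 27 above and 4 below. Lox, lysyl oxidase, which crosslinks collagen, had 502, 466 and 595 FPKM in Lipo-CGS, against 776, 706 and 821 FPKM in Lipo (log2 fold change -0.56, limma adjusted p = 0.0704). Adamts14, which trims procollagen, had 1.79, 1.95 and 1.57 FPKM in Lipo-CGS, against 4.18, 3.42 and 3.12 FPKM in Lipo (log2 fold change -0.84, limma adjusted p = 0.0613). P4ha2, a prolyl hydroxylase that low oxygen induces, lay above, with 407, 285 and 344 FPKM in Lipo-CGS, against 211, 268 and 269 FPKM in Lipo (log2 fold change 0.46, limma adjusted p = 0.154). Matricellular and adhesion proteins lay below in 8 of 26 members and above in 1, with a median of -0.15 (in 14 and 1, with a median of -0.27, without Lipo replicate 1), including the called genes Reln and Npnt.

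Matrix proteases and their inhibitors lay on both sides, with 3 of 22 above and 6 below. Mmp3, stromelysin 1, had 356, 219.6 and 283 FPKM in Lipo-CGS, against 135, 174 and 149 FPKM in Lipo (log2 fold change 0.88, limma adjusted p = 0.0613), with 599 to 704 FPKM in Saline and 466 to 541 FPKM in Uninvolved knees. Mmp10, stromelysin 2, lay above too, with 34.8, 22.1 and 26.5 FPKM in Lipo-CGS, against 11.8, 18.2 and 15.3 FPKM in Lipo (log2 fold change 0.86, limma adjusted p = 0.0704). Htra4, a serine protease, had 26.95, 17.8 and 31.1 FPKM in Lipo-CGS, against 1.06, 9.86 and 7.62 FPKM in Lipo, the largest fitted difference above 0 of all tested genes (log2 fold change 2.31, standard error 0.59, limma adjusted p = 0.099). Mmp28 lay on the other side, with 0.24, 0.22 and 0.13 FPKM in Lipo-CGS, against 3.11, 1.28 and 1.35 FPKM in Lipo (log2 fold change -1.72, limma adjusted p = 0.0789). The collagenase Mmp13 and the aggrecanase Adamts5, the proteases most tied to cartilage loss and named after their values were seen, overlapped. Mmp13 had 12.5, 11.9 and 18.6 FPKM in Lipo-CGS and 10.2, 13.5 and 12.5 FPKM in Lipo (95% interval of the log2 fold change -0.76 to 1.21), and Adamts5 had 18.9, 21.6 and 23.3 FPKM in Lipo-CGS and 14.99, 23.9 and 22.99 FPKM in Lipo (95% interval -0.34 to 0.48).

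Integrins lay below in 5 of 14 members and above in none, with a median of -0.14. Itga3 and Itga6, chains of laminin receptors, led the list. Itga3 had 20.1, 30 and 18.9 FPKM in Lipo-CGS, against 67.1, 34.2 and 35.9 FPKM in Lipo (log2 fold change -0.94, limma adjusted p = 0.101), and Itga6 had 44.2, 48.7 and 45.1 FPKM in Lipo-CGS, against 90.8, 66.2 and 58.8 FPKM in Lipo (log2 fold change -0.62, limma adjusted p = 0.0846). The genes of the contractile actin cytoskeleton lay below in 15 of 26 members and above in 1, and 25 of the 26 fitted differences were below 0, with a median of -0.31 (-0.22 without Lipo replicate 1). Actn1, an actin crosslinker, had 114, 134 and 104 FPKM in Lipo-CGS, against 255, 143 and 179 FPKM in Lipo (log2 fold change -0.68, limma adjusted p = 0.112). Acta2, the actin of smooth muscle and myofibroblasts, had 108, 88.6 and 132 FPKM in Lipo-CGS, against 197, 166 and 229.8 FPKM in Lipo (log2 fold change -0.86, limma adjusted p = 0.167). The mean of the contractile list, on the log2 scale relative to the mean of each gene over all libraries, was -0.10, -0.01 and -0.12 in the Lipo-CGS libraries, against 0.46, 0.17 and 0.24 in the Lipo libraries, so the groups did not overlap. Markers of pericytes and smooth muscle, of which Acta2 is one, summed to 272 to 303 FPKM in Lipo-CGS and 341 to 430 FPKM in Lipo, with Rgs5 at 0 in all 6 libraries. Of the 5 tested markers Acta2 was the 1 that lay below. Mcam was the 1 that lay above, with 10.8, 14.7 and 9.10 FPKM in Lipo-CGS, against 8.48, 7.52 and 6.75 FPKM in Lipo (log2 fold change 0.55). The part of these cells in the contractile list was not tested.

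The genes of cell division lay below. Of 71 mitosis and spindle genes all 71 fitted differences were below 0, 42 members lay below without overlap and none above, and none was called. The median was -0.66, and -0.41 without Lipo replicate 1, when 42 again lay below. Kif11, the spindle motor Eg5, had 6.57, 9.52 and 7.22 FPKM in Lipo-CGS, against 20.5, 13.3 and 12.02 FPKM in Lipo (log2 fold change -0.91, limma adjusted p = 0.0704). Aspm, a protein of the spindle poles, had 2.99, 3.66 and 3.11 FPKM in Lipo-CGS, against 8.52, 5.30 and 4.97 FPKM in Lipo (log2 fold change -0.82, limma adjusted p = 0.0702). Ncapg, a subunit of condensin, had 3.06, 5.21 and 4.16 FPKM in Lipo-CGS, against 11.9, 7.76 and 6.34 FPKM in Lipo (log2 fold change -0.96, limma adjusted p = 0.0765). The highest of the 6 values was that of Lipo replicate 1 in each of the 3 genes. All Saline and Uninvolved values of these genes lay above those of Lipo-CGS, for Kif11 at 15.1 to 19.8 FPKM in Saline and 15.8 to 19.6 FPKM in Uninvolved knees. Mean levels of the list were -0.86, -0.52 and -0.85 in the Lipo-CGS libraries, against 0.41, -0.17 and -0.47 in the Lipo libraries, so the groups did not overlap, though Lipo replicate 3 lay close to Lipo-CGS replicate 2. The means were 0.22, 0.34 and 0.55 in Saline and 0.51, 0.41 and 0.42 in Uninvolved knees. DNA replication genes lay below in 19 of 64 members and above in none, with a median of -0.46 (-0.26 without Lipo replicate 1). Cdc6, which loads the replicative helicase, had 2.74, 4.13 and 2.40 FPKM in Lipo-CGS, against 8.52, 5.63 and 4.21 FPKM in Lipo (log2 fold change -0.86, limma adjusted p = 0.099).

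The inhibitors of cyclin-dependent kinases were split. Cdkn1c encodes p57, which restrains the cycle in differentiating chondrocytes, and had 36.2, 37.1 and 53.7 FPKM in Lipo-CGS, against 4.89, 24.4 and 14.7 FPKM in Lipo (log2 fold change 1.73, limma adjusted p = 0.0966). Its Lipo-CGS values were above all 9 other libraries. Cdkn2a, the locus of p16 and ARF that rises in senescent cells, had 3.62, 3.45 and 3.44 FPKM in Lipo-CGS, against 12.4, 6.84 and 5.79 FPKM in Lipo (log2 fold change -1.07, limma adjusted p = 0.1). With p15 (Cdkn2b) the genes of this locus both lay below, and in the list of CDK inhibitors and p53 targets as a whole 6 of 20 members lay above and 6 below.

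The glycolysis and hypoxia genes lay above. Of 46 tested members 44 had a fitted difference above 0, 30 lay above without overlap and 1 below, with a median of 0.42 (0.33 without Lipo replicate 1, when 31 lay above and 1 below) and none called. Aldoc, an aldolase, had 38.2, 28.1 and 32.3 FPKM in Lipo-CGS, against 9.99, 19 and 17.6 FPKM in Lipo (log2 fold change 1.10, limma adjusted p = 0.0702). Slc16a3, the transporter that exports lactate, had 171, 126 and 144 FPKM in Lipo-CGS, against 67.5, 99.7 and 78.6 FPKM in Lipo (log2 fold change 0.85, limma adjusted p = 0.0702). Bhlhe40, a repressor induced by low oxygen, had 39.02, 36.8 and 35.7 FPKM in Lipo-CGS, against 17.5, 23.4 and 25.5 FPKM in Lipo (log2 fold change 0.75, limma adjusted p = 0.0602). In Aldoc the Lipo-CGS values were above all 9 other libraries, whereas those of Slc16a3 overlapped Saline, at 122 to 175 FPKM. The mean of the list was 0.23, 0.05 and 0.13 in the Lipo-CGS libraries, against -0.45, -0.14 and -0.21 in the Lipo libraries, without overlap. Ndufa4l2, a mitochondrial protein induced by low oxygen that stands in the list of the respiratory chain, had 388, 289.9 and 341 FPKM in Lipo-CGS, against 95.2, 206 and 172 FPKM in Lipo (log2 fold change 1.17, limma adjusted p = 0.0789).

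Families of mitochondrial proteins, ribosomes and lysosomes held smaller differences in the same direction. Of 77 nuclear genes of the respiratory chain 41 lay above and none below, with a median of 0.20 (0.21 without Lipo replicate 1, when 48 lay above and 1 below). For 71 mitochondrial ribosomal proteins the counts were 21 and none (median 0.11, and 0.06 without Lipo replicate 3), and for 76 cytosolic ribosomal proteins 25 and none (median 0.15), with symbols that may include copies sharing reads. Without Lipo replicate 1, 33 mitochondrial and 38 cytosolic ribosomal proteins lay above and 0 and 0 below. The 23 tested entries of mitochondrially encoded transcripts differed from this, with 2 above, none below and a median of -0.05. Lysosomal genes lay above in 26 of 64 members and below in 5, with a median of 0.25 (0.16 without Lipo replicate 1), and the mean of the list was 0.30, 0.20 and 0.28 in the Lipo-CGS libraries, against -0.17, 0.17 and 0.03 in the Lipo, -0.19, -0.15 and -0.09 in the Saline and -0.09, -0.13 and -0.16 in the Uninvolved libraries. Ctsl, cathepsin L, had 889, 747 and 865 FPKM in Lipo-CGS, against 367, 603 and 498 FPKM in Lipo (log2 fold change 0.79, limma adjusted p = 0.0713), and its Lipo-CGS values were above all 9 other libraries. Neu1, the lysosomal sialidase, had 19.4, 14.2 and 17.8 FPKM in Lipo-CGS, against 7.62, 11.4 and 10.8 FPKM in Lipo (log2 fold change 0.76, limma adjusted p = 0.0702). Bnip3, a receptor of mitophagy induced by low oxygen, had 70.1, 57.9 and 77.6 FPKM in Lipo-CGS, against 20.7, 43.4 and 36.1 FPKM in Lipo (log2 fold change 1.08, limma adjusted p = 0.0704).

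Other large families are given by their counts. The 162 tested solute carriers had 23 members above and 21 below, and the genes of endoplasmic reticulum chaperones 2 and 5 of 40. Genes of cholesterol synthesis, uptake and efflux had 9 above and 5 below of 37. Of 42 genes that build and sulfate glycosaminoglycans 5 lay above and 5 below. Splicing factors had 2 above and 8 below of 72, and Hox and hindlimb genes 4 and 2 of 27, with Tbx4 the called one.

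The families of the other called genes are given by their counts. Carbonic anhydrases, aquaporins and channels of chondrocytes had 0 of 24 members above and 10 below (0 and 12 without Lipo replicate 1), Car3 called and a median of -0.19. Kcnk2, a potassium channel opened by stretch, had 13.9, 16.98 and 17.4 FPKM in Lipo-CGS, against 30.8, 21.5 and 21.2 FPKM in Lipo (log2 fold change -0.58, limma adjusted p = 0.0808). In that list Aqp1, the water channel of vessels and fibroblasts, named after its values were seen, had 3.29, 5.63 and 3.32 FPKM in Lipo-CGS, against 25.8, 15.5 and 15.7 FPKM in Lipo and 14.7, 5.82 and 219.8 FPKM in Saline (log2 fold change -2.09, standard error 0.95, limma adjusted p = 0.27, and 0.0363 without Saline replicate 3). Saline replicate 3 held by far the highest Aqp1 value of the 12 libraries, and Aqp1 was called in 3 of 17 alternative fits. In the hyaluronan family of Vcan 5 of 14 members lay below and 1 above, among them the hyaluronan receptor Cd44, with 12.1, 19.6 and 12.4 FPKM in Lipo-CGS, against 38.5, 21.6 and 21.3 FPKM in Lipo (log2 fold change -0.84, limma adjusted p = 0.184). In the family of Serpinb2 5 of 13 plasminogen activators and serpins lay below, while Plat, the tissue plasminogen activator, lay above, with 179.9, 137 and 208 FPKM in Lipo-CGS, against 92.2, 127 and 98.9 FPKM in Lipo (log2 fold change 0.71, limma adjusted p = 0.145). Of 39 axon guidance genes, the family of Reln, 5 lay above and 8 below. Sema3b, a secreted semaphorin, had 15.8, 13.6 and 12.6 FPKM in Lipo-CGS, against 3.05, 8.05 and 7.60 FPKM in Lipo (log2 fold change 1.20, limma adjusted p = 0.0704). Of 12 genes of calcineurin, NFAT and RCAN, Rcan1 lay above and 1 below, and no relative of it was called. The retinoic acid family of Aldh1a3 had 0 of 10 members above and 2 below, Aldh1a3 and Cyp26b1, while 5 fitted differences were above 0. Fatty acid synthesis, desaturation and storage, the family of Fads6, had 9 of 35 members above and 5 below. In the TNF superfamily, that of Tnfsf18, 3 of 12 members lay above and 2 below. Tnfrsf11b, osteoprotegerin, the decoy receptor that restrains osteoclasts, had 369, 313 and 382 FPKM in Lipo-CGS, against 109, 219.7 and 229.5 FPKM in Lipo (log2 fold change 1.00, limma adjusted p = 0.102).

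Of 47 antioxidant genes and NRF2 targets 19 lay above and 7 below, with a median of 0.06 (-0.01 to 0.11 over the fits with 1 library left out) and 32 fitted differences above 0. Metallothioneins and Sod2 lay above and Nqo1 and Slc7a11 below. Slc7a11, the cystine carrier that feeds glutathione synthesis, had 0.98, 0.94 and 1.0 FPKM in Lipo-CGS, against 1.38, 1.68 and 1.57 FPKM in Lipo (log2 fold change -0.47, limma adjusted p = 0.102). Of 34 ATF4 targets 10 lay above and 10 below. Cebpb, a transcription factor of inflammation and of cAMP responses, had 78.9, 45.8 and 58.7 FPKM in Lipo-CGS, against 20.2, 28.2 and 36.5 FPKM in Lipo (log2 fold change 1.10, limma adjusted p = 0.0798). Ppp1r15a, which restarts translation after stress, had 50.2, 46.5 and 48.4 FPKM in Lipo-CGS, against 32.9, 33.01 and 36.7 FPKM in Lipo (log2 fold change 0.49, limma adjusted p = 0.0704). Of 20 circadian clock genes 5 lay above and 1 below. Dbp, a clock-driven transcription factor, had 37.8, 31.7 and 34.3 FPKM in Lipo-CGS, against 16.6, 24.8 and 21.6 FPKM in Lipo (log2 fold change 0.72, limma adjusted p = 0.0746).

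Markers of other cell types were low or overlapped in most lists. Pdpn, podoplanin, a marker of the synovial lining that cartilage cells also express, had 131, 134 and 133 FPKM in Lipo-CGS, against 49.1, 104 and 69.4 FPKM in Lipo (log2 fold change 0.90, limma adjusted p = 0.0757). Of 8 tested fibroblast markers Pdpn was the 1 that lay above, while 3 lay below. Those below were Dpt, with 14.76, 6.79 and 16.85 FPKM in Lipo-CGS, against 26.3, 24.5 and 19.3 FPKM in Lipo, Thy1 and Prrx1. Their log2 fold changes were -0.93, -0.29 and -0.27. The summed fibroblast markers, Pdpn included, were at 478 to 504 FPKM in Lipo-CGS and 452 to 550 FPKM in Lipo. Cd34, Clec3b and Dpp4 stayed under 1 FPKM in all 6 libraries. The part of fibroblasts in the collagen list was not tested. The list of Schwann cells and neurons summed to 449 to 478 FPKM in Lipo-CGS and 230 to 413 FPKM in Lipo, most of it S100b, which chondrocytes express, with Sox10 at 0. S100b had 432, 398 and 442 FPKM in Lipo-CGS, against 174, 372 and 256 FPKM in Lipo (log2 fold change 0.73, limma adjusted p = 0.164). Lymphocyte markers summed to 0.40 to 0.42 FPKM in Lipo-CGS and 0.35 to 0.60 FPKM in Lipo, and endothelial markers to 13 to 14 FPKM in Lipo-CGS and 11.7 to 15 FPKM in Lipo. No marker of any of the 12 cell types was called. Over all tested genes 0.0791% were called higher and 0.0879% lower. The absence of calls among so few markers therefore says nothing about the share of each cell type.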

How the data were processed

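The authors aligned 50 bp single reads with STAR to Rnor_6.0, and their methods name featureCounts as the counter whereas the submitters' processing notes name HTSeq. The deposited table holds FPKM with 2 decimals for 28546 symbols and 12 libraries, and the step from counts to FPKM is not given in the sources used here. Counts being unknown, no counting intervals were computed.

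Columns were assigned to groups by their names. FPKM was analyzed as log2(FPKM + 0.5) without rescaling, in limma 3.58.1 (R 4.3.3, statmod 1.5.0; trended eBayes, with 8 degrees of freedom from the residuals and 3.65 from the prior). The thresholds follow the methods of the study. An exact permutation test of 3 against 3 libraries cannot give a two-sided p under 0.1 and was not used. Simulated data held 50 genes each shifted by -2, -1, 1 and 2 on the log2 scale. Over 11373 genes the comparison called 50, 44, 49 and 50 of these, with 4 false calls. These counts hold for the simulation and do not give the share of real differences that was detected. Among the real genes, Gas1, Cntfr and Tnn had fitted differences of 1.28, 1.48 and -3.58 and were not called. How far the simulation resembles the real libraries was not tested.

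Named genes are all called genes, the 12 largest differences each way at an unadjusted p under 0.0005 among uncalled genes without overlap and with a mean of at least 1 FPKM in a group, up to 4 members of each list with the smallest p, and genes of adenosine signaling, cartilage and cell type markers. Others are marked as named after their values were seen. Genes, lists and rules were chosen with earlier results of these data known. Of the list symbols 39 were absent from the table. Promoters were matched by symbol to RefSeq (8338 tested genes). Items withheld for evaluation are not reported here. The alternatives were pseudocounts of 1 and 0.1, no filter and 5 FPKM, median-of-ratios scaling, fits to 6, 9 and 11 libraries, a replicate block, robust eBayes, array weights, the unadjusted threshold and leaving out each library. Python 3.11.15 with matplotlib 3.10.9 drew the figures.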

Additional observations from a re-analysis of the deposited data

How the results depend on the processing

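Counts of called genes are given as higher and lower in Lipo-CGS, against 9 and 10 with the reported settings, with the number of the 19 that stayed called. The pseudocount of 1 gave 10 and 13 (19 kept), that of 0.1 gave 8 and 10 (18 kept), median-of-ratios scaling 7 and 10 (17 kept), robust eBayes 9 and 10 (19 kept), no filter 7 and 10 (14 kept) and a filter of 5 FPKM 7 and 6 (13 kept). Fits to the 6 libraries compared gave 11 and 31 (13 kept), to the 9 without Saline 15 and 33 (19 kept) and to the 11 without Saline replicate 3 47 and 61 (19 kept). Array weights gave 184 and 188 (19 kept) and the unadjusted threshold 41 and 31. Leaving out each of the 6 libraries gave 0 to 31 higher and 3 to 17 lower. The cause of these differences was not tested. Of 2270 fold changes of the 135 tested genes named here over these alternatives, 2015 kept direction and side of the threshold, 87 lost the call, 161 gained it, 37 of these without Saline replicate 3, and 7 turned their direction, none of a called gene. Those 7 came from leaving out a library, where the log2 fold change of Crem ranged from -0.02 to 0.14, of Nr4a1 from -0.11 to 0.25, of Acan from -0.32 to 0.08, of Col2a1 from -0.04 to 0.31 and of Adamts5 from -0.14 to 0.19. Of 544 family medians over 8 of the alternatives 43 moved by more than 1 SD between the Lipo libraries. That SD includes Lipo replicate 1 and is wide where this library stands apart, so the count can miss dependence on it. The median of acute phase and complement genes, 1.05 and 0.35 without Lipo replicate 1, did not count as moved.

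Whether the replicate numbers pair the samples is not stated. The deviations of same-numbered libraries from their group means correlated between -0.22 and 0.20 over 18 pairs. For differently numbered libraries the range was -0.38 to 0.31. With 3 libraries per group the deviations depend on each other, so these correlations cannot tell whether same-numbered libraries share a batch or rats. With the replicate number as a block 2 genes were called higher and 7 lower (9 kept).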
